A study of Arabidopsis thaliana with 248 samples.

Results

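Transposable element (TE) genes are the annotated genes that lie within transposons, and the 273 described here are the long ones on the arms of the *Arabidopsis* chromosomes. Of the 33602 genes in the count tables, 3903 were annotated as TE genes and 2002 of those spanned at least 2000 bases. A long TE gene was taken as lying on an arm where its start was outside the stretch from 11.5 to 17.7 Mb of chromosome 1, 1.1 to 7.2 Mb of chromosome 2, 10.3 to 17.3 Mb of chromosome 3, 1.5 to 6.3 Mb of chromosome 4, and 9.0 to 16.0 Mb of chromosome 5. This held for 286 genes, of which 13 were left out by name, while 1716 long TE genes lay inside these stretches around the centromeres. The rule itself reads no expression value. The 77, 47, 48, 45, and 56 members on chromosomes 1 to 5 spanned 2026 to 10188 bases (median, 3989), 228 of them had a single exon, and 271 were classed as pseudogenes in the RefSeq annotation of TAIR10.1. They lay among genes, since a protein-coding gene was within 1 kb of 138 members and overlapped 10 of them. The shortest member was AT5G49080 with 2026 bases and the longest gene just too short was AT5G41710 with 1990. A minimum of 1800 bases would have given 284 members and a minimum of 2200 bases 257.

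In plants, TEs are kept silent by dimethylation of histone H3 lysine-9 (H3K9me2) and by DNA methylation outside CG sites (mCH), which comprises methylation at CHG and CHH sites, where H is A, T, or C. SUVH4, SUVH5, and SUVH6 are the H3K9 methyltransferases, and their SRA domains bind methylated DNA. CMT2 and CMT3 are the DNA methyltransferases, CMT3 acting mainly on CHG and CMT2 mainly on CHH sites, and they bind H3K9me2, so that each mark maintains the other. Long TEs, and TEs around the centromeres, are known to depend on this loop, whereas short TEs among genes rely more on RNA-directed DNA methylation. LDL2 is an LSD1-type demethylase that removes monomethylation of H3 lysine-4 downstream of H3K9me2, and ASHH3 is a SET domain methyltransferase that deposits H3K36me3.

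Messenger RNA was sequenced from 2-week-old seedlings with 3 independent biological replicates of each genotype, in 2 separate experiments of 27 and 9 libraries. The *ldl2* experiment held the triple mutant *suvh4/5/6* and the double mutant *cmt2/3*, each with and without the *ldl2-1* mutation, their F1 hybrids, and WT (Col-0). The F1 called sxc had *suvh4/5/6* as the seed parent and *cmt2/3* as the pollen parent, and cxs was the reciprocal cross. Both F1 crosses were also made in the *ldl2* background, giving sxc *ldl2* and cxs *ldl2*. In every F1 the *SUVH* and *CMT* genes were heterozygous, so both arms of the loop were present again in chromatin that came from parents without them. The *ashh3* experiment held cxs made in the *ashh3* (*sdg7-2*) background, cxs, and WT. Whole seedlings were used, so that fewer cells expressing a gene and less RNA per cell cannot be told apart. The authors counted each TE gene on the strand with the larger sum in each table, which was the strand opposite to the annotation for 58 members in the *ldl2* table and 70 in the *ashh3* table.

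Many members are built as retrotransposons with long terminal repeats, in which reverse transcription starts from a tRNA that pairs with the sequence just after the first repeat. Paired direct repeats of at least 100 bases were found around 82 of the 273 members, with a first repeat of 120 to 2140 bases (median, 298.5). In 46 of them the word TGGTATCAGA stood within 20 bases after that repeat. Its complement ends the RNA of 8 of the 23 annotated tRNA-Met genes. The following 60 bases around the end of the first repeat are shown for members whose RNA levels are described below, read 5′ to 3′ on the strand of the element from the RefSeq sequence of TAIR10.1, with the word in capitals. They lie at chr1:26366771-26366830 on the plus strand, chr4:6919363-6919422 on the minus strand, chr4:10993338-10993397 on the plus strand, chr1:20085515-20085574 on the plus strand, chr3:9696993-9697052 on the minus strand, and chr4:9488439-9488498 on the minus strand.
AT1G70010: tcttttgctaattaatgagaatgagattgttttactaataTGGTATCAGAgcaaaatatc
AT4G11375: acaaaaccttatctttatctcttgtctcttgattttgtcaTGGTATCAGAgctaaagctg
AT4G20365: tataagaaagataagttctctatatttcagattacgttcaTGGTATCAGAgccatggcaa
AT1G53810: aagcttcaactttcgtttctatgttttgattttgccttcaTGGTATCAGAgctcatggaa
AT3G26483: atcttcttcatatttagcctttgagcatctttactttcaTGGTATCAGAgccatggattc
AT4G16870: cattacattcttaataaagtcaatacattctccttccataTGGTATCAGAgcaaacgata
Searched on both strands within 1000 bases of each gene, the word was present at 68 members (24.9%), at 258 of the 1716 long TE genes inside the stretches (15%), at 19 of the 276 shorter TE genes on the arms (6.88%), and at 206 of 12838 protein-coding genes of at least 2000 bases (1.60%). The windows differed in length, with medians of 5989, 5406.5, 2794.5, and 4904 bases in the same order. The word had been picked from these same members, as the word starting with TGG found most often within 20 bases after their first repeats. The 46 cases and the higher share among the members thus depend in part on that choice.

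CHG sites are where CMT3 acts, and members carried a median of 69.6 CHG cytosines per kb on both strands together (range, 14.3 to 114), against 65.6 in long TE genes inside the stretches, 55.8 in shorter TE genes on the arms, and 62.5 in protein-coding genes. The beginnings of 3 members are shown, picked for their different RNA levels in the F1. Every CHG trinucleotide is in capitals (CAG, CTG, CCG, and CGG, the last being CCG on the other strand). Shown are the first 120 bases of each gene, at chr2:378328-378447 on the minus strand, chr1:21350674-21350793 on the minus strand, and chr5:17304711-17304830 on the plus strand of TAIR10.1. They held 12, 17, and 16 CHG cytosines in the same order. A relation between CHG content and the level in the F1 was not tested.
AT2G01840: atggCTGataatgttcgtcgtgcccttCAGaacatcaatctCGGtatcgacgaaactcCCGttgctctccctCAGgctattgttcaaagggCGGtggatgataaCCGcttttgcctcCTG
AT1G57640: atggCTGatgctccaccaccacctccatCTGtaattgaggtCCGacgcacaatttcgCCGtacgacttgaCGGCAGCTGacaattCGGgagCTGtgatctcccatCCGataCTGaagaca
AT5G43105: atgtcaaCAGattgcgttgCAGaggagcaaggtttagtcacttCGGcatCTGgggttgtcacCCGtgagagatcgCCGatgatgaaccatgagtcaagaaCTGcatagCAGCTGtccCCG
AT2G01840 was still transcribed in the F1, and AT1G57640 and AT5G43105 were nearly silent in sxc and cxs, as described below.

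Sequence copies limit what can be assigned to a member. Of the 273 members, 65 had more than 50% of their 100-base words elsewhere in the genome and 147 had under 10%, and 100 bases were the length of the mapped reads. Among the copies, 4 elements of 4442 bases on 4 chromosomes had 0, 1, and 4 differences from AT5G44890 over their whole length. The stretch from position 2456 to 2565, counted from 1 at the 5′ end of the gene, is shown because it holds differences of both kinds, with the positions that differ in capitals. It lies at chr5:18128561-18128670 on the minus strand, chr3:9732977-9733086 on the minus strand, chr2:12575248-12575357 on the minus strand, and chr1:7355995-7356104 on the plus strand.
AT5G44890: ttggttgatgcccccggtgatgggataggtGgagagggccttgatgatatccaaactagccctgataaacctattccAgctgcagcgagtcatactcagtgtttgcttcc
AT3G26530: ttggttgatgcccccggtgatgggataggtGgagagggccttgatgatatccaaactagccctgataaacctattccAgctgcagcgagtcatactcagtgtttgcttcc
AT2G29240: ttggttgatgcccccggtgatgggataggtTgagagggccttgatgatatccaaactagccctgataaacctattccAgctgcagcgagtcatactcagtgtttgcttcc
AT1G21020: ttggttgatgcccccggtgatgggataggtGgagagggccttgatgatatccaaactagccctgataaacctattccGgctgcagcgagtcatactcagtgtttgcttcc
AT3G26530 had the same sequence as AT5G44890. AT2G29240 differed by G2486T and AT1G21020 by C2038T, C2039T, A2533G, and C4397T. Reads from AT5G44890 and AT3G26530 cannot be told apart, and their RNA levels below are those of a family.

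Library totals were 8252720 to 12942034 counts, and 3 counts, used as the floor for a gene without counts, corresponded to 0.229 to 0.371 CPM (counts scaled to library size, with TMM factors). Such floors cover counting error only. All 273 members had a count in some library of the *ldl2* table, and 265 in the *ashh3* table. Counts over the whole of *LDL2* did not separate the genotypes, with 2.16 to 5.37 CPM in the *ldl2* libraries and 2.84 to 5.48 CPM in the others of that experiment. *ASHH3* had 11.5 to 13.2 CPM in cxs *ashh3* and 15.7 to 19.0 CPM in cxs. Leaf markers were high throughout. The pollen marker was at most 2.85 CPM and the flower markers at most 1.83 CPM in sum. Root markers (*PYK10*, *CASP1*, *COBL9*, and *EXPA7* in sum) differed between the experiments, with 59.9 to 205 CPM in the *ldl2* experiment and 869 to 1639 CPM in the *ashh3* experiment. Replicate 2 of cxs *ldl2* stood apart with 11674 CPM over 3 leaf markers (range of all libraries, 11674 to 37633) and 252 members with a count, the most of any library. Counts of calls that change without it are given below.

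In WT most members were silent or nearly so, and 140 to 182 of the 273 had any count in a library. The summed level of the members was 934 ± 151 CPM in WT of the *ldl2* experiment and 795 ± 49.5 CPM in WT of the *ashh3* experiment (SD, n = 3 each). The highest level per length was that of AT1G24938 (77.3 TPM, counts scaled by exon length and library total), whose counts on the strand opposite to its annotation were nearly equal to those of AT1G24967 and of further genes nearby. More generally, 37 members of the *ldl2* table had counts within 5% of those of another gene less than 500 kb away, in runs of up to 70 further genes spanning up to 363.7 kb. Such counts do not measure the member alone. These 37 members made up 31.2% of the summed WT level, and without them the sum was 643 ± 38.1 CPM. None of them was called in any comparison of the *ldl2* experiment.

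Some members had RNA in WT that did not come from such a run. AT1G80020 was at 53.9, 50.9, and 53.6 CPM in WT and stayed between 44.9 and 58.4 CPM in all 27 libraries. AT3G04605, annotated as *MUG1*, of the MUSTANG family of genes derived from transposases, was at 39.3, 35.8, and 35.3 CPM in *suvh4/5/6* and at 27.4, 32.3, and 31.0 CPM in WT. AT5G55896 was at 34.1, 36.6, and 27.2 CPM in WT. The member with the highest CPM in WT was AT4G16870 (chr4:9483955-9488397, minus strand), 68 bases from the disease resistance gene *RPP4*, with 136, 145, and 160 CPM. This element lost RNA in the mutants and is taken up below.

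Many members gained RNA with the loss of SUVH4/5/6. Between *suvh4/5/6* and WT, 100 of 273 members rose and 3 fell by edgeR's quasi-likelihood test (Benjamini-Hochberg adjusted *P* under 0.05), against 2.09% of all genes called higher and 0.527% called lower. The median log2 fold change was 1.06 over the members and 0.00 over all genes. Of the long TE genes inside the stretches, 232 of 1716 rose, and of the shorter TE genes on the arms 18 of 276, so that the share was 36.6%, 13.5%, and 6.52%. Counts were too few for a call in many of the others, since 869 of the 1716 but 238 of the 273 had more than 3 counts in these libraries. The summed level of the members was 2837 ± 101 CPM in *suvh4/5/6* and 934 ± 151 CPM in WT (SD, n = 3 each). The corresponding sums inside the stretches were 5308 ± 221 CPM and 1082 ± 278 CPM.

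Of the 100 members that rose, 33 had no counts in any WT library, and the libraries of the genotypes did not overlap for any of the 100 (10.9% of all genes were higher without overlap). AT5G43415 (chr5:17440088-17445889, plus strand, counted on the opposite strand) had 127, 125, and 139 CPM in *suvh4/5/6* and 0 in WT, at least 1474-fold higher against a floor of 3 counts over the WT libraries. AT2G01840 (chr2:373125-378447, minus strand) had 83.1, 79.7, and 81.1 CPM against 0, at least 919-fold higher. AT4G15590 (chr4:8900245-8907255, minus strand) had 90.8, 80.2, and 69.0 CPM against 0, at least 904-fold higher. These elements had no count in WT and 69.0 CPM or more in every mutant library. AT1G70010 (chr1:26367177-26371457, plus strand), the first of the elements shown above with a tRNA-binding word, had 64.5, 64.6, and 78.7 CPM in *suvh4/5/6* and 0 in WT (at least 783-fold higher). AT4G11375, also shown there, had 53.8, 64.7, and 57.1 CPM in *suvh4/5/6* and 0 in WT (at least 662-fold higher). The replicates of the mutant lay close together for all 5, and no library of the mutant came near WT.

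The rise was not spread evenly over the members. By length, it was called for 19 of 83 members under 3000 bases, 63 of 152 from 3000 to under 5000 bases, and 18 of 38 of 5000 bases and over. By distance from the edge of the stretch around the centromere, it was called for 31 of 68 within 1 Mb, 29 of 81 from 1 to 3 Mb, and 40 of 124 farther out. Members with paired repeats were called in 42 of 82 cases (51.2%, with a median log2 fold change of 3.20) and members without them in 58 of 191 (30.4%, with a median of 0.59). The members on the study's list of LDL2-regulated TE genes, which was chosen by DNA methylation in these crosses, rose in 24 of 41 cases (median, 5.13), and the other members in 76 of 232 (median, 0.88). These are counts, and the differences between the groups were not tested.

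**Figure D1:**
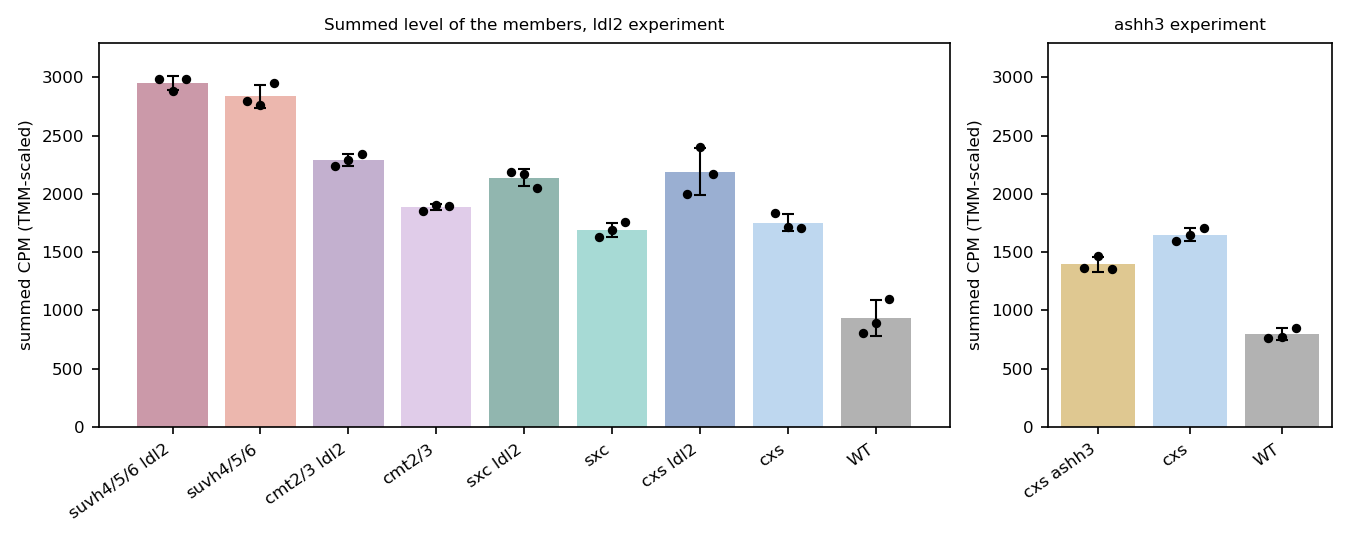
Summed level of the 273 members in each library, in TMM-scaled CPM, for the 9 genotypes of the *ldl2* experiment (left) and the 3 of the *ashh3* experiment (right). Bars show means, error bars the SD of 3 libraries, and points the libraries; means ran from 2951 CPM in *suvh4/5/6 ldl2* to 934 CPM in WT in the first experiment and were 1395, 1650, and 795 CPM in cxs *ashh3*, cxs, and WT in the second.

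Loss of CMT2/3 also raised many members. Between *cmt2/3* and WT, 75 members rose and 3 fell (all genes, 2.32% higher and 1.36% lower), with a median log2 fold change of 0.52. The summed level was 1886 ± 28.2 CPM in *cmt2/3*. Inside the stretches, 113 of 1716 rose, to a sum of 2172 ± 99.5 CPM. AT5G43415 had 54.0, 77.2, and 49.0 CPM in *cmt2/3* and 0 in WT (at least 679-fold higher). AT1G70010 had 59.8, 53.4, and 43.9 CPM against 0 (at least 592-fold higher). AT5G24915 had 34.3, 32.9, and 38.3 CPM against 0 (at least 398-fold higher). As in *suvh4/5/6*, these had no WT count at all. AT2G19840 had 32.2, 27.7, and 23.3 CPM (at least 313-fold higher) and AT2G20460 had 21.7, 22.5, and 19.1 CPM in *cmt2/3* (at least 238-fold higher).

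Direct comparison of the mutants showed that, where a member differed, it was higher in *suvh4/5/6*. Between *suvh4/5/6* and *cmt2/3*, 29 members were higher and none lower (all genes, 0.634% higher and 0.0446% lower). At an unadjusted *P* under 0.05, 4 members were lower, and by the Wald test of DESeq2 none was. The 29 had a median log2 fold change of 4.30, and 12 of them were on the LDL2 list. AT5G20750 (chr5:7027773-7031290, plus strand) had 15.4, 13.6, and 15.6 CPM in *suvh4/5/6* and 0 in all *cmt2/3* libraries, at least 160-fold higher. AT4G18410 and AT4G22415 were also without counts in *cmt2/3* and were at least 77.3-fold and 31.2-fold higher in *suvh4/5/6*. AT1G78095 had 21.4, 17.3, and 19.6 CPM in *suvh4/5/6* and 0.0877, 0, and 0 CPM in *cmt2/3* (adjusted *P* = 5.4e-07 by edgeR). With 1 count in *cmt2/3*, the ratio of pooled counts was 626, with an exact 95% interval of 112 to 24763 for counting error. The levels in *cmt2/3* were thus at the floor. AT4G15590 had 90.8, 80.2, and 69.0 CPM in *suvh4/5/6* and 0.965, 0.945, and 1.16 CPM in *cmt2/3* (log2 fold change of 6.27 ± 0.72 SE, adjusted *P* = 1.83e-05 by edgeR). Without *cmt2/3* replicate 3 the count was 19, and for AT4G22415 the call was lost in 3 of 6 fits that left out a library.

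Others overlapped between the mutants. AT4G17450 had 23.7, 22.8, and 24.5 CPM in *suvh4/5/6* and 22.9, 24.5, and 23.9 CPM in *cmt2/3*, against 0, 0, and 0.0763 CPM in WT. AT2G20460 had 19.1, 21.9, and 21.3 CPM in *suvh4/5/6* and 21.7, 22.5, and 19.1 CPM in *cmt2/3*. Neither was called between the mutants.

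In each parental mutant 3 members fell against WT, and both comparisons use the same WT libraries. AT4G16870, the element beside *RPP4*, had 0.161, 0.310, and 0.471 CPM in *suvh4/5/6* and 1.58, 1.23, and 0.679 CPM in *cmt2/3*, against 136, 145, and 160 CPM in WT. The log2 fold change was -8.85 in *suvh4/5/6* (SE of 0.85, adjusted *P* = 7.21e-08 by edgeR) and -6.96 in *cmt2/3* (SE of 0.74, adjusted *P* = 6.1e-07 by edgeR). This was a near complete loss of the most abundant member of WT. AT4G16910, another element of this region 21278 bases away, had 0.322, 0.621, and 1.04 CPM in *suvh4/5/6* and 4.05, 3.53, and 4.58 CPM in WT. AT3G05415, counted on the opposite strand, where it overlaps the protein-coding gene AT3G05410, had 1.61, 1.24, and 1.88 CPM in *suvh4/5/6* and 11.9, 12.2, and 11.3 CPM in WT.

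**Figure D2:**
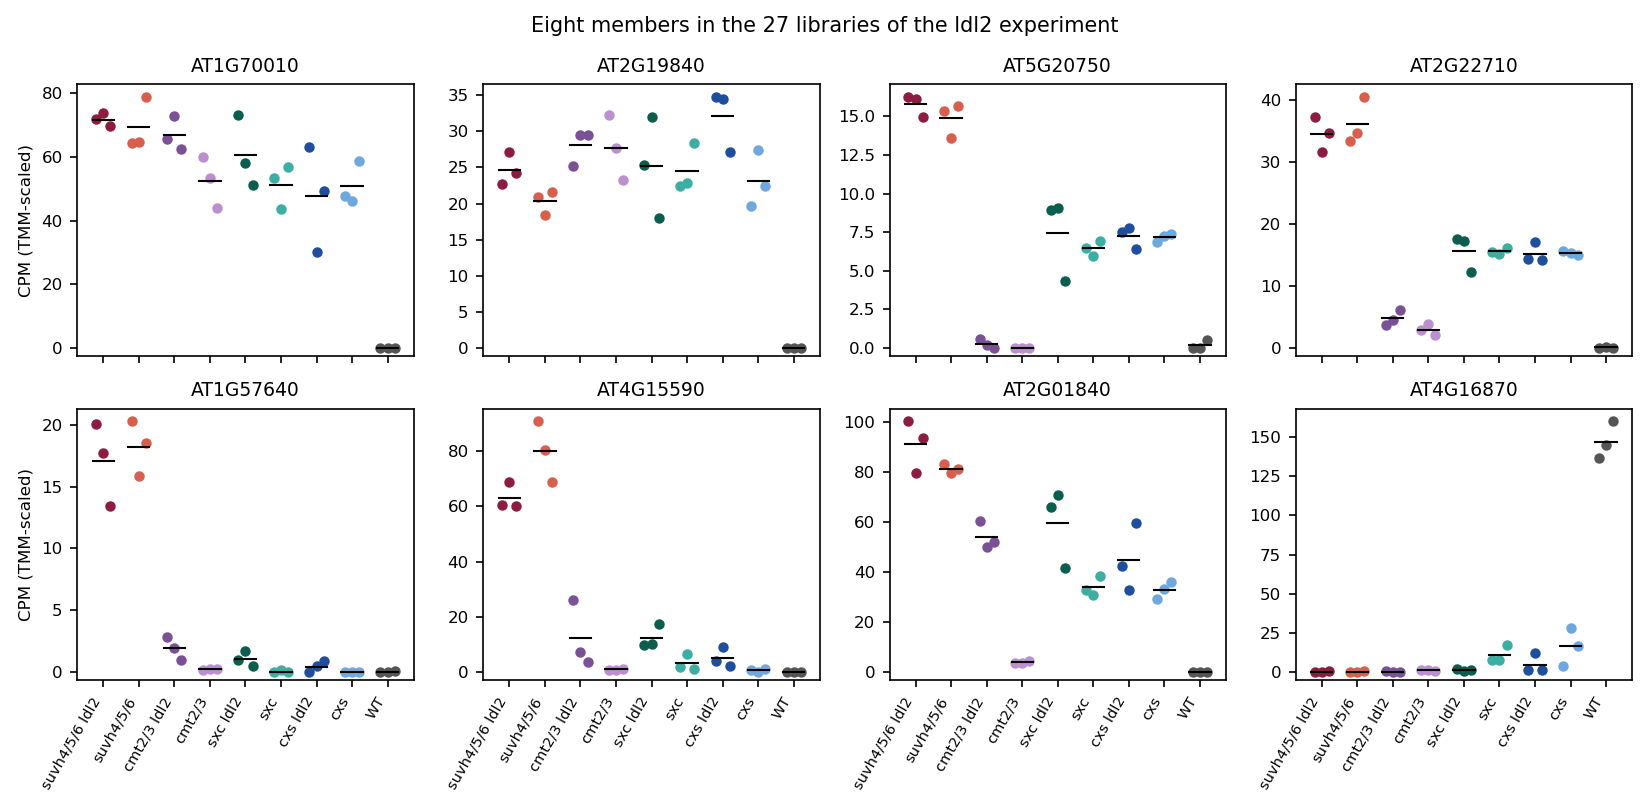
Levels of 8 members in TMM-scaled CPM in the 27 libraries of the *ldl2* experiment; points are libraries, lines are means of 3, and vertical scales differ between panels. AT1G70010 and AT2G19840 were at 0 in WT and above 0 in every other library, AT1G57640 and AT4G15590 were highest in *suvh4/5/6* with and without *ldl2* and at most 0.163 and 6.53 CPM in sxc and cxs, and AT4G16870 was at 136 to 160 CPM in WT and at 28.2 CPM or less elsewhere.

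The F1 hybrids tell how much RNA each element had once all components of the loop were back. RNA levels do not show by themselves whether an element was silenced anew. Compared with WT, 59 members were still higher and 2 lower in sxc (all genes, 0.711% higher and 0.146% lower), and 61 were higher and 2 lower in cxs (0.714% and 0.0655%). AT1G70010 had 53.4, 43.6, and 56.7 CPM in sxc and 47.7, 46.2, and 58.7 CPM in cxs, against 0 in WT. AT2G19840 had 22.4, 22.8, and 28.4 CPM in sxc and 19.7, 27.4, and 22.4 CPM in cxs, against 0 in WT. AT4G11375 had 31.8, 27.9, and 29.3 CPM in sxc and 31.3, 28.7, and 29.9 CPM in cxs, against 0 in WT. These elements remained transcribed at a level near that of the parents or between them. AT5G24915 had 38.6, 14.9, and 21.9 CPM in sxc and 36, 43.7, and 32.3 CPM in cxs, and AT2G01840 had 33.0, 30.8, and 38.4 CPM in sxc and 29.3, 33.5, and 36 CPM in cxs, again against 0 in WT.

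Against the arithmetic mean of the parents, the F1 level had a median of 77.9% over the 160 members with at least 1 CPM in a parent (quartiles, 33.9% and 99.4%). It was between 50% and 150% for 105 of them and under 10% for 23. Over the 317 long TE genes inside the stretches with that level, the median was 20.5% and 113 were under 10%, and over 20760 genes of all kinds it was 99.7%. The level is given next by how the parents compared. These groups and the minimum of 1 CPM rest on the same parental libraries as the ratio, so the order of the medians is not independent of the grouping. For the 29 that were higher in *suvh4/5/6* than in *cmt2/3* the median was 18.8%, and 12 were under 10%. For the 68 that were higher in *suvh4/5/6* than in WT but not called between the parents it was 67.7%. For the other 63, among them AT4G16870 and AT3G05415, which were lower in *suvh4/5/6* than in WT, it was 97.0%.

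**Figure D3:**
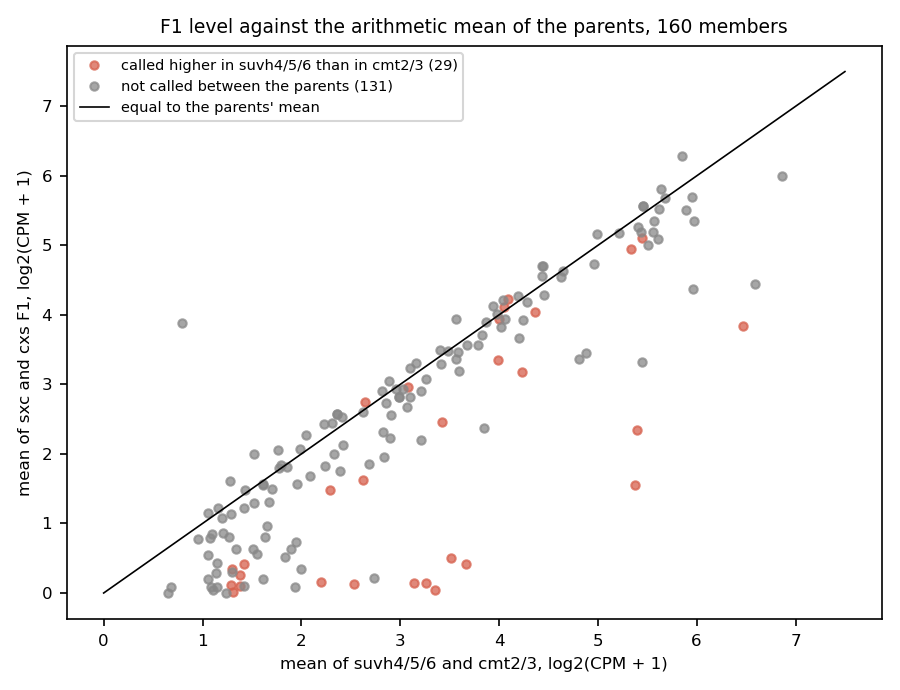
Mean level of the sxc and cxs F1 against the mean of *suvh4/5/6* and *cmt2/3* for the members with at least 1 CPM in a parent, both as log2(CPM + 1), with the 29 members called higher in *suvh4/5/6* than in *cmt2/3* in red. The line marks F1 levels equal to the mean of the parents, and points below it are members with less RNA in the F1 than that mean. Members nearly silent in the F1 lie near the bottom of the plot.

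As a test on the log scale, both F1 were compared with both parents, and 4 members were higher and 30 lower (all genes, 0.113% higher and 0.604% lower). On this scale the F1 is set against the geometric mean of the parents, and of the 4 only AT4G16870 was also above their arithmetic mean. Inside the stretches, 6 were higher and 88 lower of 1716. The libraries of F1 and parents did not overlap for 15 of the 30 (0.64% of all genes were lower without overlap). AT1G57640 (chr1:21346354-21350793, minus strand) had 0, 0.163, and 0 CPM in sxc and 0 in all cxs libraries, against 20.3, 15.8, and 18.6 CPM in *suvh4/5/6* and 0.175, 0.283, and 0.291 CPM in *cmt2/3* (adjusted *P* = 0.00019 by edgeR). The F1 was at 0.295% of the parental mean. With 2 counts in the F1, the ratio of pooled counts of the parents over the F1 was 306, with an exact 95% interval of 84.4 to 2534 for counting error. AT2G31080 had 0.0891, 0, and 0 CPM in sxc and 0.552, 0, and 0 CPM in cxs, against 16.6, 13, and 17.0 CPM in *suvh4/5/6* and 1.49, 1.89, and 1.75 CPM in *cmt2/3* (log2 fold change of -5.71 ± 0.65 SE, adjusted *P* = 8.16e-06 by edgeR). In AT2G31080 every F1 library lay below every *cmt2/3* library. In AT1G57640 the highest F1 library (0.163 CPM) and the lowest *cmt2/3* library (0.175 CPM) were both under the floor of 3 counts. AT1G21020, among the 4 copies shown above, had no counts in either F1 and was at least 28.6-fold lower than in the parents, and this call was lost without *cmt2/3* replicate 1 or 2 (largest adjusted *P* = 0.0807, edgeR).

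The other members called higher were AT5G20750, AT2G22710, and AT2G01840, whose parents differed and whose F1 lay below the arithmetic mean of the parents. AT5G20750, without counts in *cmt2/3*, had 6.50, 5.96, and 6.92 CPM in sxc and 6.87, 7.25, and 7.41 CPM in cxs, which was 91.8% of the arithmetic mean of the parents. AT2G22710 (chr2:9651719-9654532, plus strand) had 15.5, 15.2, and 16.2 CPM in sxc and 15.5, 15.3, and 15 CPM in cxs, against 33.3, 34.6, and 40.4 CPM in *suvh4/5/6* and 2.90, 3.87, and 2.13 CPM in *cmt2/3*, or 79.1% of the mean of the parents. AT2G01840 was at 78.4%. For these 3 the libraries of the reciprocal crosses overlapped. Counts do not show from which parental allele the RNA came.

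AT4G16870 moved the other way. It had 8.02, 7.92, and 17.7 CPM in sxc and 4.10, 28.2, and 17.0 CPM in cxs, against 0.161 to 0.471 CPM in *suvh4/5/6* and 0.679 to 1.58 CPM in *cmt2/3* (log2 fold change of 4.45 ± 0.57 SE, adjusted *P* = 4.6e-05 by edgeR). Both F1 were still below WT, by log2 fold changes of -3.74 in sxc (SE of 0.59, adjusted *P* = 0.000337 by edgeR) and -3.18 in cxs (SE of 0.57, adjusted *P* = 0.00185 by edgeR). Thus, RNA of this element came back in part in the F1, while that of most called members fell.

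The crosses in the *ldl2* background ask whether the RNA level of the members in the F1 depends on LDL2. The summed level of the members was 2138 ± 73.9 CPM in sxc *ldl2* and 1691 ± 63.0 CPM in sxc, and 2189 ± 202 CPM in cxs *ldl2* and 1754 ± 74.0 CPM in cxs (SD, n = 3 each). Without the 37 members that share counts with their neighbors the sums were 1907 ± 76.3 CPM against 1430 ± 33.6 CPM, and 1686 ± 69.9 CPM against 1507 ± 93.0 CPM. Over both F1 together, 20 members were higher with *ldl2* and 1 lower (all genes, 0.289% higher and 0.0327% lower), with a median log2 fold change of 0.31 over the members and 0.04 over all genes. In sxc the median was 0.20 for members with paired repeats and 0.09 for those without, and in cxs 0.47 and 0.78. The cxs values include cxs *ldl2* replicate 2, which stood apart, with a member sum of 2401 CPM (replicates 1 and 3, 1998 and 2168 CPM). Medians without it were not computed. Of the 20, 11 were among the 41 members on the LDL2 list and 9 among the 232 others. The list was chosen for lower methylation in the *ldl2* crosses and is not independent of these genotypes. Inside the stretches, 45 of 1716 rose. The libraries did not overlap for 5 of the 20 (0.295% of all genes were higher without overlap).

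AT5G43105 (chr5:17304711-17308952, plus strand), nearly silent in the F1, had 0.396, 0.889, and 0.988 CPM in sxc *ldl2* against 0.0891, 0.0817, and 0 CPM in sxc, and 0.979, 2.26, and 3.18 CPM in cxs *ldl2* against 0.158, 0.104, and 0.107 CPM in cxs. The log2 fold change over both F1 was 3.68 (SE of 0.62, adjusted *P* = 0.00497 by edgeR). It remained far below the 12.2, 5.59, and 10.5 CPM of *suvh4/5/6*. AT4G22450 (chr4:11835592-11837644, plus strand) had 23.8, 23.5, and 21.3 CPM in sxc *ldl2* against 19.6, 9.72, and 1.61 CPM in sxc, and 21, 41.7, and 43.1 CPM in cxs *ldl2* against 7.42, 5.28, and 4.72 CPM in cxs (log2 fold change of 1.85 ± 0.29 SE, adjusted *P* = 0.00169 by edgeR). AT2G03100 had 2.28, 3.47, and 1.71 CPM in sxc *ldl2* against 0.534, 0.572, and 0.741 CPM in sxc, and 2.25, 2.51, and 2.07 CPM in cxs *ldl2* against 0.947, 0.311, and 1.40 CPM in cxs (log2 fold change of 1.68 ± 0.29 SE, adjusted *P* = 0.00635 by edgeR). For these 3 the call held in all 12 fits that left out a library. In a fit of these 4 genotypes alone no member was called over both F1, so the 21 calls rest on the spread estimated over all 9 genotypes.

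AT1G31570 (chr1:11302782-11309164, minus strand) shows the spread between F1 libraries. It had 42.6, 71.1, and 37.2 CPM in sxc *ldl2* against 4.01, 36.2, and 26.9 CPM in sxc, and 64.5, 58.5, and 60.6 CPM in cxs *ldl2* against 27.2, 5.39, and 18 CPM in cxs (log2 fold change of 1.51 ± 0.33 SE, adjusted *P* = 0.0472 by edgeR). The call was lost in 7 of 12 fits without a library (largest adjusted *P* = 0.176, edgeR). It had 70.5, 60.8, and 62.2 CPM in *suvh4/5/6* and 57.7, 58.3, and 58.3 CPM in *cmt2/3*. The parents of the *ldl2* crosses had 73.0 to 93.7 CPM (*suvh4/5/6 ldl2*) and 71.8 to 78.0 CPM (*cmt2/3 ldl2*). Every F1 library with *ldl2* lay below these. AT5G43415 varied likewise among F1 libraries, with 149, 101, and 103 CPM in sxc *ldl2* against 9.80, 43.7, and 6.92 CPM in sxc, and 129, 41.5, and 73.1 CPM in cxs *ldl2* against 33.2, 2.90, and 28.1 CPM in cxs (log2 fold change of 2.22 ± 0.41 SE, adjusted *P* = 0.0142 by edgeR). AT1G62766 had a log2 fold change of 1.1 (SE of 0.23, adjusted *P* = 0.0284 by edgeR), which was lost in 8 of the 12 fits (largest adjusted *P* = 0.0923, edgeR).

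The 1 member lower over both F1 with *ldl2* was AT4G16870, which had 2.18, 0.889, and 1.17 CPM in sxc *ldl2* against 8.02, 7.92, and 17.7 CPM in sxc, and 1.27, 12.2, and 1.27 CPM in cxs *ldl2* against 4.10, 28.2, and 17.0 CPM in cxs (log2 fold change of -2.34 ± 0.46 SE, adjusted *P* = 0.0180 by edgeR). Its libraries overlapped in cxs. The number of calls over both F1 was 13 without cxs *ldl2* replicate 2, the library that stood apart, or without sxc replicate 3. It was 10 without cxs replicate 2 or 3, 12 without sxc *ldl2* replicate 2, and 35 without cxs *ldl2* replicate 1.

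**Figure D4:**
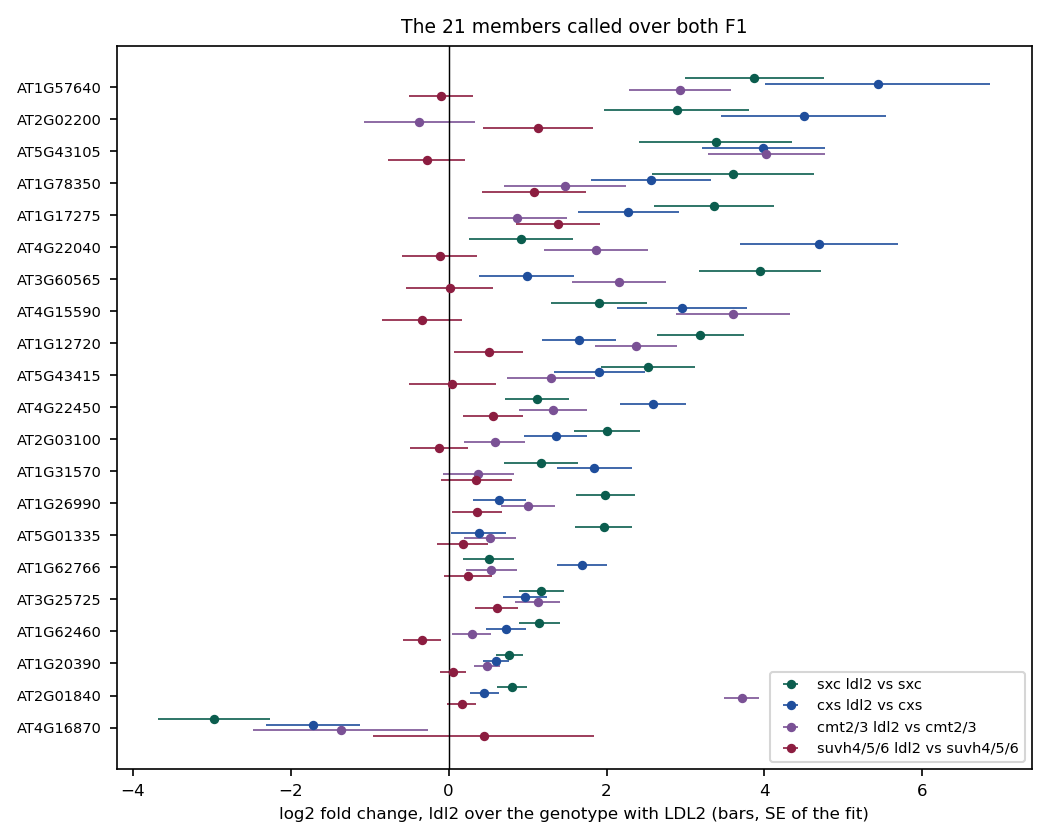
Log2 fold change of *ldl2* over the same genotype with *LDL2* for the 21 members called over both F1, in sxc, cxs, *cmt2/3*, and *suvh4/5/6*; points are edgeR estimates and bars their SE. In the F1 most points lie to the right of 0, and AT4G16870 lies to the left in both crosses.

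Within each cross alone few members passed the test. Between sxc *ldl2* and sxc, 4 rose and none fell (all genes, 0.119% higher and 0.00893% lower, and at an unadjusted *P* under 0.05, 39 and 3 members), and between cxs *ldl2* and cxs, 3 rose and 1 fell (0.0565% and 0.0446%, and unadjusted, 60 and 14). The Wald test of DESeq2 called 13 members in sxc (12 higher and 1 lower) and 35 in cxs, and fits of the compared genotypes alone called 0 in both crosses. Throughout, counts at an unadjusted *P* and from alternative fits are given without the share over all genes. They therefore do not set the members apart from other genes. In sxc the 4 were AT3G60565, AT1G12720, AT1G26990, and AT5G01335, with log2 fold changes of 3.94, 3.19, 1.99, and 1.96. AT1G12720 had 7.33, 9.70, and 5.93 CPM in sxc *ldl2* and 0.624, 1.47, and 0.247 CPM in sxc. AT5G01335 had 13.6, 13.3, and 7.72 CPM in sxc *ldl2* and 3.92, 1.47, and 3.58 CPM in sxc. In cxs, AT5G43105, AT4G22450, and AT1G62766 rose by log2 fold changes of 3.98, 2.59, and 1.69, and AT1G53810 had 36, 25.1, and 33.2 CPM in cxs *ldl2* and 73.6, 43.2, and 65.4 CPM in cxs (log2 fold change of -0.95 ± 0.19 SE, adjusted *P* = 0.0491 by edgeR). Each of these 8 calls was lost in 2 to 5 of the 6 fits that left out a library. Counts ranged from 1 (without sxc replicate 1 or 3) to 5 in sxc, with 2 without sxc *ldl2* replicate 1 or 2. In cxs they were 0 without cxs replicate 3 or cxs *ldl2* replicate 3, 1 without cxs *ldl2* replicate 2, 11 without cxs replicate 2, and 46 without cxs *ldl2* replicate 1.

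In the parents the summed level of the members was also higher with *ldl2*, mainly in *cmt2/3*. It was 2292 ± 50.8 CPM in *cmt2/3 ldl2* and 1886 ± 28.2 CPM in *cmt2/3*. In *suvh4/5/6 ldl2* it was 2951 ± 60.1 CPM, against 2837 ± 101 CPM in *suvh4/5/6* (SD, n = 3 each). Without the 37 members that share counts with neighbors, the sums were 2028 ± 18.7 and 1643 ± 31.0 CPM, and 2744 ± 37.8 and 2607 ± 67.4 CPM. Few single members were called in the parents. Between *suvh4/5/6 ldl2* and *suvh4/5/6*, 3 rose and none fell (all genes, 0.0208% higher and 0.00298% lower, and at an unadjusted *P* under 0.05, 17 and 3 members), and a fit of these 2 genotypes alone called 5, while DESeq2 called 3 higher and 0 lower. The median log2 fold change was 0.02. All 3 were copies of the family shown above. AT5G44890 had 28.8, 33.5, and 33.3 CPM in *suvh4/5/6 ldl2* and 2.25, 3.41, and 2.64 CPM in *suvh4/5/6* (log2 fold change of 3.52 ± 0.48 SE, adjusted *P* = 0.00212 by edgeR), and AT3G26530, the copy with the same sequence, had 28.8, 33.5, and 33.3 CPM against 2.58, 3.41, and 2.73 CPM. AT2G29240 had 27.9, 32.2, and 32.3 CPM against 2.25, 3.34, and 2.54 CPM. The call of AT2G29240 was lost in all 6 fits that left out a library (adjusted *P* of 0.0814 to 0.217, edgeR), that of AT3G26530 in 2, and that of AT5G44890 in 1. Near-equal counts of copies do not show how many of them were transcribed. Of the members with under 10% repeated 100-base words, none was called. The count was 0 without *suvh4/5/6* replicate 1 and 1 without replicate 3.

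Between *cmt2/3 ldl2* and *cmt2/3*, 2 members rose and none fell (all genes, 0.0565% higher and 0.00595% lower, and unadjusted, 33 and 5 members), where DESeq2 called 12 higher and 1 lower. Both were on the LDL2 list. AT2G01840 had 60.4, 50.02, and 52.0 CPM in *cmt2/3 ldl2* and 3.86, 3.87, and 4.66 CPM in *cmt2/3* (log2 fold change of 3.71 ± 0.22 SE, adjusted *P* = 2.42e-09 by edgeR), and this call held in all 6 fits without a library. With *ldl2*, the level was thus nearer to the 83.1, 79.7, and 81.1 CPM of *suvh4/5/6*. AT5G43105 had 2.18, 4.65, and 1.3 CPM in *cmt2/3 ldl2* and 0, 0.472, and 0 CPM in *cmt2/3* (log2 fold change of 4.02 ± 0.74 SE, adjusted *P* = 0.0377 by edgeR), and this call was lost in 4 of 6 such fits, which left 1 call without *cmt2/3* replicate 1 or *cmt2/3 ldl2* replicate 1 or 2. A fit of these 2 genotypes alone called 24 members. The difference between the *ldl2* effect over both F1 and that in *suvh4/5/6* was tested as an interaction and was called for no member (all genes, 0.0208% higher and 0% lower, and unadjusted, 31 and 6 members), where DESeq2 made 2 calls. An *ldl2* effect particular to the F1 was therefore not shown for any member, with 1 call without cxs *ldl2* replicate 1.

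In the *ashh3* experiment, nearly all members that changed had less RNA in cxs *ashh3*. The summed level was 1395 ± 62.6 CPM in cxs *ashh3*, 1650 ± 57.4 CPM in cxs, and 795 ± 49.5 CPM in WT (SD, n = 3 each). Between cxs *ashh3* and cxs, 14 members fell and 1 rose (all genes, 0.506% lower and 0.557% higher), with a median log2 fold change of -0.43 over the members and 0.00 over all genes. The libraries did not overlap for any of the 14 (7.63% of all genes were lower without overlap). For AT4G11375 this rests on scaling alone, since its lowest cxs library (0.358 CPM) and highest cxs *ashh3* library (0.347 CPM) both held 3 counts. With a filter on low counts 4 members were called, and the Wald test of DESeq2 called 7, all of them lower in cxs *ashh3*. Inside the stretches 8 of 1716 fell. Of the 14, 7 were among the 41 members on the LDL2 list and 6 among the 38 members of 5000 bases and over.

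AT4G15590 had no counts in cxs *ashh3* and 3.04, 1.16, and 0.716 CPM in cxs, at least 14.4-fold lower, and AT5G40605 had none and 0.784, 1.73, and 1.31 CPM in cxs, at least 11.2-fold lower (adjusted *P* = 0.0276 and 0.0394, edgeR). AT4G11375 had 0, 0.209, and 0.347 CPM in cxs *ashh3* and 11.9, 4.72, and 0.358 CPM in cxs (log2 fold change of -4.82 ± 0.93 SE, adjusted *P* = 0.0143 by edgeR). These 3 calls were lost in 4, 5, and 2 of 6 fits without a library. Those of AT4G15590 and AT5G40605 were also lost with the replicate number as a block (adjusted *P* = 0.0819 and 0.120, edgeR), and that of AT4G11375 by DESeq2 (adjusted *P* = 0.164). AT2G01840 had 4.53, 6.38, and 0.232 CPM in cxs *ashh3* and 14.2, 19.1, and 20.9 CPM in cxs (log2 fold change of -2.26 ± 0.43 SE, adjusted *P* = 0.0124 by edgeR). AT5G24915 had 0.735, 2.82, and 2.43 CPM in cxs *ashh3* and 5.58, 9.25, and 11.9 CPM in cxs (log2 fold change of -2.13 ± 0.42 SE, adjusted *P* = 0.0122 by edgeR). AT4G22450 had 2.08, 1.67, and 1.39 CPM in cxs *ashh3* and 4.31, 5.20, and 5.49 CPM in cxs (log2 fold change of -1.54 ± 0.33 SE, adjusted *P* = 0.0236 by edgeR). AT4G22450, AT2G01840, AT4G15590, and AT5G43415, the last described next, were also among those that were higher over both F1 with *ldl2* in the other experiment. How many of all genes were called in both was not counted.

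Of the study's 14 ASHH3-regulated TE genes, a list chosen for higher DNA methylation in the *ashh3* crosses, 4 were members. AT5G43415 had 18, 47.1, and 47.9 CPM in cxs *ashh3* and 63.7, 105, and 88.7 CPM in cxs (log2 fold change of -1.18 ± 0.24 SE, adjusted *P* = 0.0214 by edgeR). AT1G58561, which lies within the protein-coding gene AT1G58602, had 41.9, 34.2, and 30.5 CPM in cxs *ashh3* and 52.5, 61.5, and 57.7 CPM in cxs (log2 fold change of -0.69 ± 0.12 SE, adjusted *P* = 0.00304 by edgeR). Neither overlapped between the genotypes. AT2G02110 had 3.80, 3.24, and 1.74 CPM in cxs *ashh3* and 5.88, 5.98, and 4.18 CPM in cxs, and AT3G26614 had 0.612, 0.314, and 0.463 CPM against 1.18, 0.867, and 0.477 CPM, and neither was called.

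AT2G22710 was the 1 member that rose, with 11.9, 14.4, and 12.9 CPM in cxs *ashh3* and 0.0979, 1.06, and 4.30 CPM in cxs (log2 fold change of 2.92 ± 0.50 SE, adjusted *P* = 0.00442 by edgeR). The call held in all 6 fits without a library and was lost with a filter on low counts (adjusted *P* = 0.0862, edgeR) and by the Wald test (adjusted *P* = 0.357, DESeq2). Its cxs level was 15.5, 15.3, and 15 CPM in the *ldl2* experiment and thus near that of cxs *ashh3*, but root markers differed between the experiments (84.6 to 205 CPM in cxs of the *ldl2* experiment and 1278 to 1639 CPM in cxs of the *ashh3* experiment), and their part was not tested. Among the 14 lower members, 3 shared their counts with nearby genes. AT1G08105, AT1G08735, and AT1G08740, the last 2 chosen after their values were seen, were in runs of 7, 23, and 23 such genes. Seed storage transcripts, 9 genes summed, also moved between these libraries, with 0.612, 1.15, and 0.463 CPM in cxs *ashh3*, 5.49, 20.05, and 132 CPM in cxs, and 10.8, 0.702, and 7.86 CPM in WT. *CRU3*, *OLEO1*, *OLEO2*, *SESA1*, and *SESA2* were at 0 in cxs *ashh3*, and their part in the result was not tested. Without cxs replicate 3, the library with the most of these transcripts, 9 members were called, as without cxs *ashh3* replicate 2, and without cxs *ashh3* replicate 1 there were 6.

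**Figure D5:**
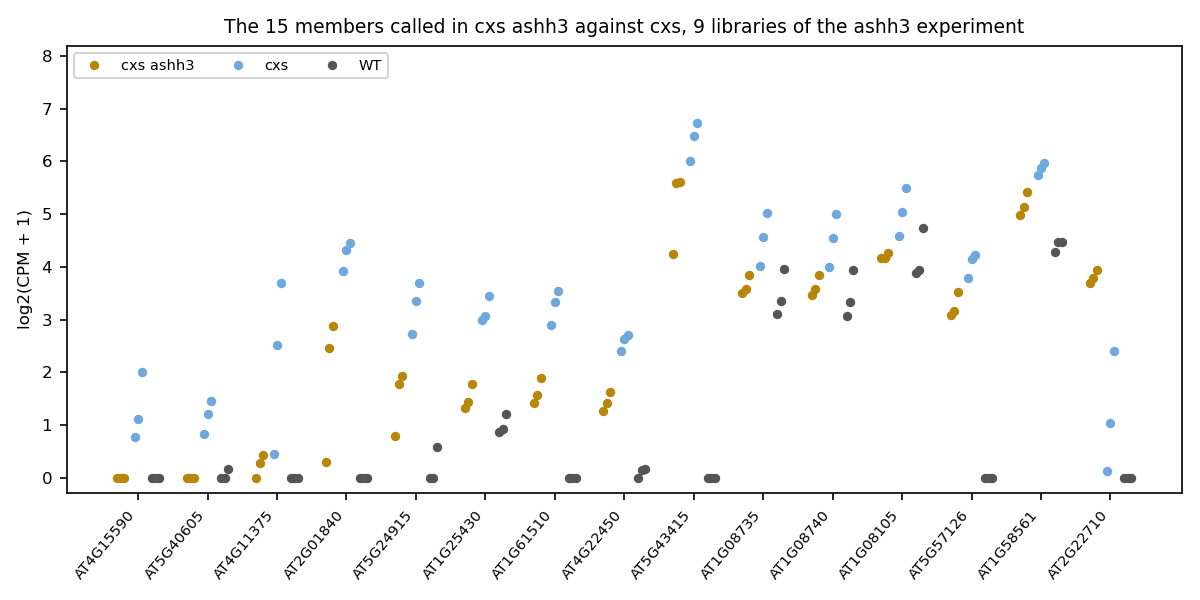
Levels of the 15 members called between cxs *ashh3* and cxs, as log2(CPM + 1), in the 9 libraries of the *ashh3* experiment; each point is a library. AT2G22710 is the only one higher in cxs *ashh3*, and the libraries of cxs *ashh3* lie below those of cxs in the other 14. For AT4G11375 the nearest libraries, 0.358 CPM in cxs and 0.347 CPM in cxs *ashh3*, both held 3 counts.

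The cross cxs was sequenced in both experiments with separate libraries, so that its difference from WT can be read in each, although the experiments differed in root markers as given above. In the *ashh3* experiment 65 members were higher and 3 lower in cxs than in WT (all genes, 2.37% higher and 3.25% lower, and a median log2 fold change of the members of 1.1). Among the 235 members counted on the same strand in both tables, 58 were higher in the *ldl2* experiment and 64 in the *ashh3* experiment, and 51 were higher in both, which was 87.9% of the 58 and 79.7% of the 64. The same overlap over all genes was not counted, so it is not shown to be particular to the members. AT4G17450 had 19.98, 18.7, and 19.7 CPM in cxs of the *ashh3* experiment, and AT2G19840 had 26.8, 24.4, and 23.9 CPM. AT4G20365 had 51.2, 62.7, and 63.1 CPM in cxs and 0 in WT, and AT3G26483 had 42.1, 41.8, and 44.2 CPM in cxs and 0 in WT. These last 2 carry the tRNA-binding word shown above. AT4G16870 was lower again, with 14.4, 13.9, and 16.5 CPM in cxs and 93.2, 77.8, and 110 CPM in WT (log2 fold change of -2.65 ± 0.14 SE, adjusted *P* = 2.69e-11 by edgeR), as was AT3G05415 (log2 fold change, -2.01).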

How the data were processed

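The authors deposited tables of counts per gene for 2 mRNA-seq experiments. They clipped 150-base paired ends to 100 bases, mapped them to TAIR10 with STAR (version not given in the sources used here), counted with its GeneCounts mode, and kept the strand with the larger sum for each TE gene in each table. Counts from shared sequence cannot be assigned to a copy. Members were taken by annotation, length, and position. The members and lists were chosen with earlier results of these data known.

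All libraries of a table were fitted with 1 mean per genotype in edgeR (version 4.0.16, R version 4.3.3), with TMM scaling and no filter, by the quasi-likelihood test. Benjamini-Hochberg adjustment was over 33602 genes, and adjusted *P* under 0.05 was called. The fit was tested on simulated data. Tables were never combined. Alternatives were RLE scaling, filterByExpr, the replicate number as a block, a fit of the compared genotypes alone, DESeq2 (version 1.42.0), and leaving out each library. Sets of members without shared counts or sequence were added after the data were seen.

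Named members were, per comparison, the 5 largest rises and 3 largest falls among those called with at least 0.5 CPM and no overlap between libraries, the 5 highest in WT by TPM, and those on the ASHH3 list. Others are marked as chosen after their values were seen, except AT5G49080 and AT5G41710, named by length, and neighboring genes. TPM used exon lengths of RefSeq's TAIR10.1, where 272 of 273 members had the same position. The annotation gave no TE family. The 12 files of single samples from other assays were not used here.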

Additional observations from a re-analysis of the deposited data

How the results depend on the processing

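Counts of members called are given here for both directions together, beside those of the main analysis. RLE scaling kept every count within 1.5 times of it. With only the compared genotypes in the fit, *ldl2* calls were 0 in sxc, 0 in cxs, 0 over both F1, 5 in *suvh4/5/6*, 24 in *cmt2/3*, and 1 for the interaction, against 4, 4, 21, 3, 2, and 0. DESeq2 called 13 in sxc, 35 in cxs, 13 in *cmt2/3*, 2 for the interaction, and 7 for cxs *ashh3*. The filter on low counts gave 4 for cxs *ashh3*, against 15. Same-numbered libraries did not deviate together in the median (r = 0.0154 over 108 pairs and 0.00357 in the *ashh3* experiment). In the *ldl2* experiment 38 of the 108 pairs had r above 0.1, as had 65 of 216 pairs with different numbers. By mean r, 13 of 27 and 1 of 9 libraries correlated best with their own number. Pairing by number is thus neither shown nor excluded. With the replicate number as a block, *cmt2/3 ldl2* against *cmt2/3* had 1 call instead of 2 and all other counts stayed within 1.5 times (18 over both F1 with *ldl2* and 12 for cxs *ashh3*). The block lost 6 calls of named members, AT3G60565 in sxc *ldl2*, AT5G43105 in cxs *ldl2* and in *cmt2/3 ldl2*, AT1G31570 over both F1, and AT4G15590 and AT5G40605 in cxs *ashh3* (adjusted *P* of 0.0522 to 0.120, edgeR). Among the members with under 10% repeated 100-base words, calls were 62 for *suvh4/5/6* against WT, 13 between the parents, 17 for the F1 against the parents, 2 for cxs *ldl2*, 11 over both F1 with *ldl2*, 0 for *suvh4/5/6 ldl2*, and 8 for cxs *ashh3*. These sets hold fewer members. Among the members whose counts matched no other gene, *suvh4/5/6 ldl2* had 0 calls. Both sets were chosen after seeing the data.

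Leaving out 1 library gave 93 to 100 calls for *suvh4/5/6* against WT, 66 to 74 for *cmt2/3*, 19 to 27 between the parents, 54 to 63 for sxc, 58 to 65 for cxs, and 24 to 32 for the F1 against the parents. With *ldl2* it gave 1 to 5 in sxc, 0 to 46 in cxs, 10 to 35 over both F1, 0 to 2 in *suvh4/5/6*, 1 to 3 in *cmt2/3*, and 0 to 1 for the interaction. For cxs *ashh3* it gave 6 to 15, and for cxs against WT in that experiment 64 to 69. No named member changed direction under any of these alternatives, and 73 of 468 fits without a library lost the call of a named member. Where a member has few counts, as most have in WT, a fitted fold change depends on the prior count, and a difference may not be detectable at this depth. The causes of these changes were not tested.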

Other observations

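Runs of neighboring genes with near-equal counts held some of the members. In the *ldl2* table, 37 members had counts within 5% of those of another gene less than 500 kb away, of which 18 were counted in antisense and 19 had at least 5 such partners. AT1G28323, chosen after its values were seen, had the most, 70. AT1G24938, the member with the highest TPM in WT, had 5 partners over 46.5 kb. AT1G08105 was in such a run too, and it had 42.5, 240, and 113 CPM in cxs *ldl2* and 22.2, 26.7, and 82.8 CPM in WT. In the *ashh3* table there were 17 such members, 8 of them counted in antisense, with up to 64 partners over up to 321.5 kb. Of these, 3 were called in cxs *ashh3* against cxs and 5 in cxs against WT. The cause of the shared counts was not tested.

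The level of cxs was compared between the experiments, whose tables were normalized separately, for the 82 members on the same strand with at least 5 CPM in either. Of these, 70 were within 2-fold. More than 4-fold higher in the *ldl2* experiment were 6 members, named here after their values were seen where no rule names them. Their mean CPM in the *ldl2* and the *ashh3* experiment was 37.3 and 8.92 for AT5G24915, 44.3 and 10.12 for AT4G01490, 29.9 and 5.64 for AT4G11375, 6.41 and 1.07 for AT2G16670, 16.4 and 2.35 for AT1G52610, and 15.3 and 1.82 for AT2G22710. More than 4-fold higher in the *ashh3* experiment were AT5G49080, with 0.138 and 13.2 CPM in the same order, and AT5G43415, with 21.4 and 85.9 CPM. AT5G24915, AT4G11375, AT2G22710, and AT5G43415 were also among the 15 members called between cxs *ashh3* and cxs. Root markers in sum were at 84.6 to 205 CPM in cxs of the *ldl2* experiment and at 1278 to 1639 CPM in cxs of the *ashh3* experiment. Libraries and tissue content cannot be told apart here, and their part in these differences was not tested.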
